A study of Mus musculus with 20 samples.

Results

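The 47 genes described here encode the machinery that copies DNA in S phase, together with genes that supply it with nucleotides, pack the new DNA into chromatin and open S phase. They were taken as a list by gene name, and all 47 of the listed genes were among the 13225 genes of the deposited table. The cells were alveolar macrophages, the resident phagocytes of the airspaces, purified from mice by flow cytometry on the surface proteins CD45, Siglec-F and CD11c. The groups, of 5 mice and 5 libraries each, were miR-155 KO mice after 4 weeks of cigarette smoke, miR-155 KO mice after 4 weeks of air (both of strain B6.Cg-Mir155tm1.1Rsky/J), WT C57BL/6 mice after the smoke and WT C57BL/6 mice after air. The labels give no age, no sex and no cell type to which the miR-155 deletion is limited, and they do not say whether the WT mice were littermates of the KO mice. The comparisons ask how smoke changes these genes in each genotype and whether the absence of miR-155, a microRNA induced in activated macrophages, changes their level or their smoke response.

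Replication begins when the origin recognition complex, Cdc6 and Cdt1 load the Mcm2 to Mcm7 hexamer onto origins, a step called licensing that takes place before S phase. Cdc45, the GINS complex and Mcm10 turn the loaded hexamer into an active helicase, after which primase and the polymerases copy the strands, the clamp Pcna holds the polymerases on the DNA, and flap endonuclease and ligase join the pieces of the lagging strand. Many of these genes are targets of E2F transcription factors. Alveolar macrophages are known to maintain themselves in the adult lung by local division.

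The libraries held 6885680 to 11952088 reads, recovered from the deposited log2 CPM (CPM is a count scaled to the library total), and no member was at 0 reads in any of the 20 libraries. Levels per mouse are given in CPM computed from those reads, in the order of the mouse codes IVa2, IVa4, IVa5, IVb2 and IVb4 for miR-155 KO smoke, IIIa5, IIIb1, IIIb2, IIIb3 and IIIb4 for miR-155 KO air, IIa1, IIa5, IIb1, IIb2 and IIb3 for WT smoke, and Ia3, Ia4, Ib1, Ib2 and Ib4 for WT air. The miR-155 KO air libraries IIIb2, IIIb3 and IIIb4 stood apart, with no read for 1645, 1524 and 1451 genes, while in the other 17 libraries 259 to 1224 genes lacked one. The 1224 genes were those of the miR-155 KO smoke library IVa5, which held 7336133 reads. Mir155hg, the host transcript of miR-155, had 0 to 5 reads per library in miR-155 KO smoke, 0 to 15 in miR-155 KO air, 0 to 21 in WT smoke and 0 or 1 in WT air, and the labels do not say which stretch of the locus is deleted, so its reads are no check of genotype. All 10 alveolar macrophage markers looked at were measured, with summed levels of 48300 to 61200 CPM over the 20 mice, and within the list 4 rose and 2 fell with smoke in miR-155 KO, and 3 rose and 2 fell in WT. Over all genes, 7.05% rose and 8.45% fell in miR-155 KO, and 9.66% rose and 12.8% fell in WT. Siglecf, which encodes the sort marker Siglec-F, fell by 1.15 ± 0.13 log2 in miR-155 KO (limma adjusted p 1.41e-07) and by 1.25 ± 0.13 in WT (2.25e-08), and Ear2, a secreted ribonuclease, fell by 1.35 ± 0.12 and 1.33 ± 0.12. Car4, carbonic anhydrase 4, rose by 1.09 ± 0.09 in miR-155 KO and 1.52 ± 0.09 in WT, and Cd68, a lysosomal glycoprotein of macrophages, by 0.69 ± 0.06 and 0.91 ± 0.06. Summed markers of other cells differed between smoke and air: 5 measured neutrophil markers summed to 139 to 314 CPM in miR-155 KO smoke and 86.1 to 134 in miR-155 KO air, and to 159 to 357 in WT smoke and 90.3 to 129 in WT air, with S100a9 at 0 reads in both air groups. Single neutrophil markers went both ways, with 3 higher and 1 lower with smoke in each genotype. The 3 measured T and NK cell markers summed to 0.642 to 7.25 CPM in miR-155 KO smoke and at most 2.03 in miR-155 KO air, and to 7.47 to 41.8 in WT smoke and at most 2.35 in WT air. For the 10 monocyte and interstitial macrophage markers the sums were 417 to 527 CPM in miR-155 KO smoke and 549 to 794 in miR-155 KO air, and 412 to 704 in WT smoke and 523 to 657 in WT air, where C1qa and Ly6c2 had 0 reads. Gene by gene this list went both ways. With smoke 2 rose and 3 fell in miR-155 KO (median log2 change 0.70), and 4 rose and 2 fell in WT (median 2.27). The 2 measured eosinophil genes summed to 119 to 161 and 71.2 to 123 CPM in miR-155 KO smoke and air, and to 126 to 193 and 72.0 to 82.2 in WT smoke and air, and the 2 measured endothelial and stromal genes to 290 to 365, 165 to 219, 286 to 342 and 189 to 238 in the same order. Of the 2 eosinophil genes, 1 rose and 1 fell with smoke in each genotype. Sums of 6 dendritic cell markers (20.2 to 47 CPM over all mice) and of 7 epithelial markers (167 to 277) overlapped between smoke and air, and the B cell marker measured was at 1.71 CPM or less. Single epithelial markers did change with smoke: 1 rose and 2 fell in miR-155 KO, and 3 rose and 2 fell in WT. The part of these cells, and of the changes in macrophage markers, in the results on the members was not tested. In sorted bulk samples, a change in the number of cells that express a gene and a change in RNA per cell cannot be told apart.

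Both subunits of ribonucleotide reductase, the licensing factor Cdc6, the initiation factor Mcm10 and the ligase Lig1 were among the genes that rose with smoke in both genotypes, while no gene of Mcm2 to Mcm7 passed the test in either. In miR-155 KO mice limma called 13 of the 47 members higher (27.7%, where 7.05% of all genes were called higher) and 1 lower, Pold1 (8.45% of all genes lower). In WT mice it called 17 higher (36.2%, against 9.66% of all genes) and 1 lower, E2f1 (against 12.8%). The median log2 change of the members was 0.21 in miR-155 KO and 0.32 in WT, beside -0.01 and -0.02 over all genes in the same order. The 8 members that rose in both genotypes were Cdc6, Mcm10, Lig1, Rrm1, Rrm2, Tk1, Uhrf1 and Clspn, or 61.5% of the miR-155 KO calls and 47.1% of the WT calls. The smoke values of a member lay above all air values for 4 members in miR-155 KO, Cdc6, Cdc45, Rrm1 and Rrm2 (4.54% of all genes), and for 20 in WT (8.15%). Differences between the role classes described next were not tested.

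An average of the smoke effect over both genotypes, a contrast added after values had been seen, called 25 members higher (13.6% of all genes) and 2 lower, Pold1 and E2f1 (17.2%). It added Mcm2, Pole, Rfc1 and Ccne2 to the members called higher in a genotype and lost Gins4. The remaining 19 passed in none of these contrasts, among them 5 of the 6 Mcm2 to Mcm7 genes and both subunits of primase. Of the 14 miR-155 KO calls 3 held under every alternative and with each library left out, Rrm1, Rrm2 and Chaf1a, and of the 18 WT calls 13 did. With the fit limited to the groups compared, 5 members were called in miR-155 KO (Mcm10 missed, with an adjusted p of 0.0615), and with array weights the miR-155 KO call of Lig1 missed at 0.052. The limited fit called 5.1% of all genes higher and 6.3% lower in miR-155 KO. Without IIIb2, IIIb3 and IIIb4 together, limma called 11 members in miR-155 KO, and Cdc6, Chaf1b, Rfc5, Rpa1 and Pold1 were not among them. The same fit called 4.63% of all genes higher and 4.6% lower in miR-155 KO. Of the 27 calls of the average, 7 did not hold with each library left out: Mcm2, Gins2, Pole, Pold1, Pcna, Rfc1 and Ccne2. For Gins2 the average call ended without Ia3, Ia4, Ib1, IIa1, IIa5, IIb2, IIIa5, IIIb3, IVa4, IVa5 or IVb2 (highest adjusted p 0.101). That of Pold1 ended without Ia3, Ib1, Ib2, Ib4, IIa1, IIa5, IIb1, IIb2, IIIb2, IIIb3, IIIb4, IVa4, IVa5 or IVb2 (highest adjusted p 0.0947). Pcna lost it without Ia3, Ia4, IIIa5, IIIb1 or IVb2 (highest adjusted p 0.0648), and Rfc1 without Ia3, Ib1, IIa5, IIb3, IIIa5, IIIb3, IIIb4, IVa4, IVa5, IVb2 or IVb4 (highest adjusted p 0.0914). Ccne2 lost it without Ia3, Ib2, Ib4, IIa1, IIa5, IIb3, IIIb3, IIIb4, IVa4, IVa5 or IVb2 (highest adjusted p 0.0904).

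**Figure D1:**
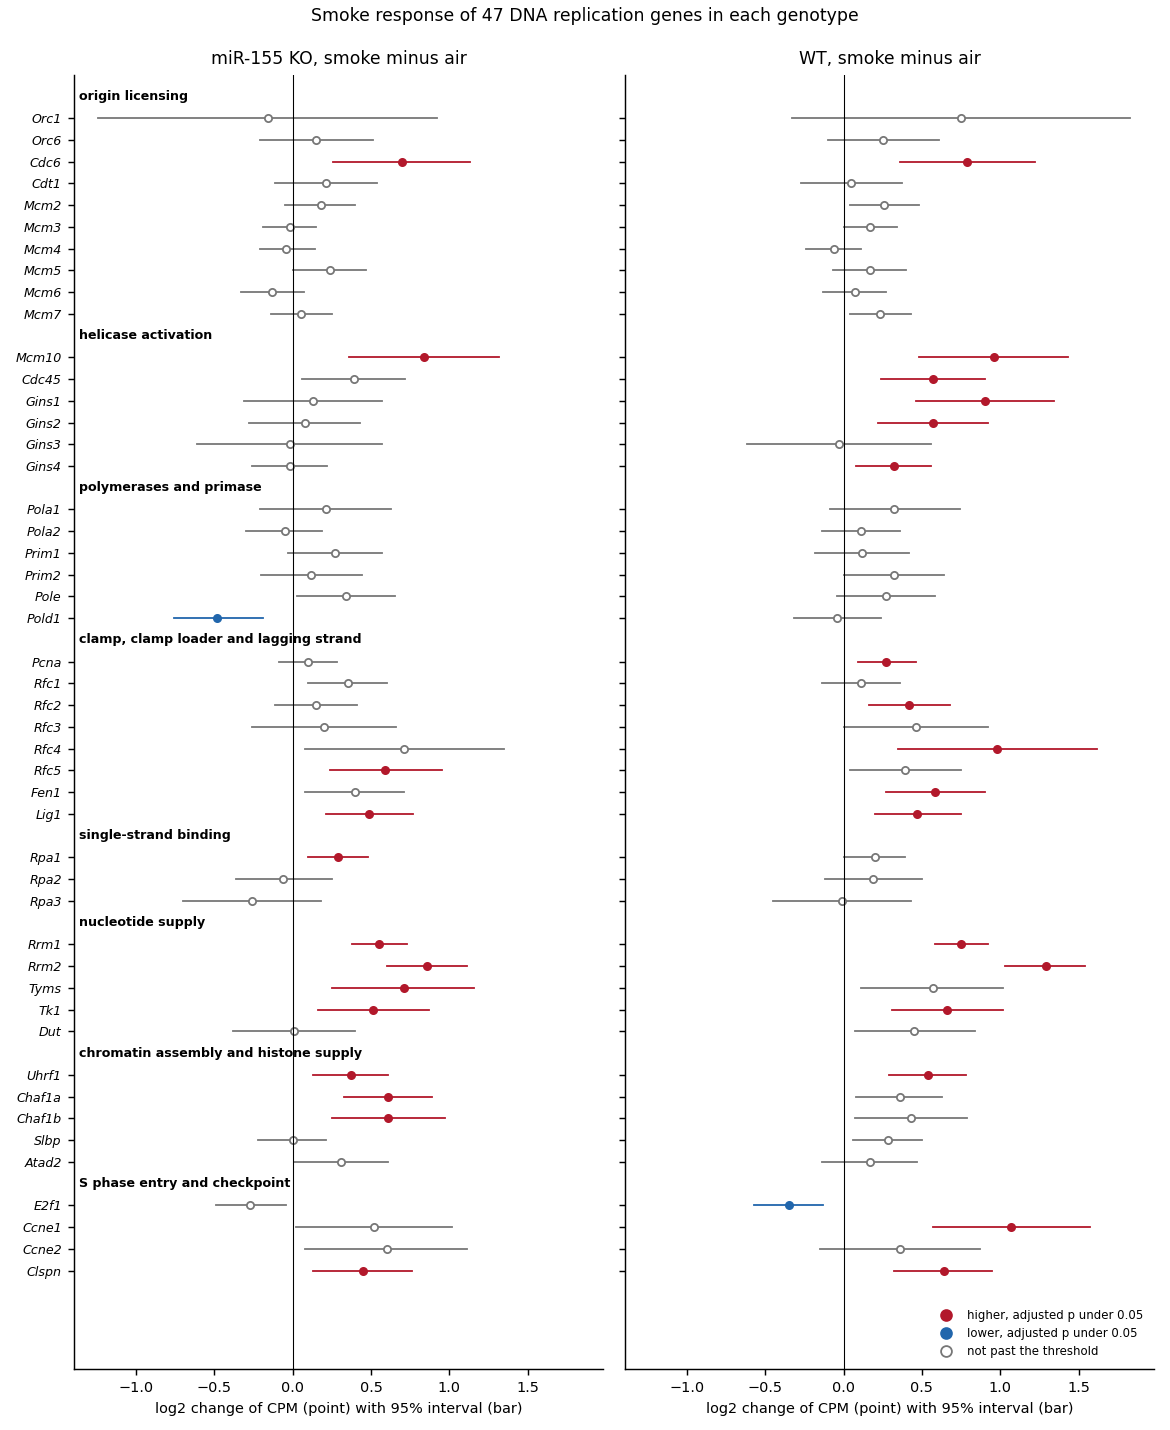
Log2 change of CPM with smoke (points, with 95% intervals as bars) for the 47 members in miR-155 KO (left) and WT (right), grouped by role, with 5 mice per group. Filled red points passed the limma threshold upward (13 in miR-155 KO, 17 in WT), filled blue points downward (Pold1 in miR-155 KO, E2f1 in WT), and open grey points did not pass.

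Nucleotide supply held the members with the smallest p. Rrm1 and Rrm2 encode the large and small subunits of ribonucleotide reductase, which makes deoxyribonucleotides. Rrm2 had 88.5, 80.9, 91.6, 123 and 86.8 CPM in the miR-155 KO smoke mice, against 53.9, 41.7, 49.2, 59.4 and 54.1 CPM in the miR-155 KO air mice. In WT, Rrm2 had 101, 119, 92.5, 96.7 and 128 CPM in the smoke mice, against 36.9, 47, 44.3, 55.4 and 36.9 CPM in the air mice. All 5 smoke mice lay above all 5 air mice in both genotypes. Rrm2 rose by 0.86 ± 0.12 log2 in miR-155 KO (limma adjusted p 1.02e-05) and by 1.29 ± 0.12 in WT (adjusted p 7.36e-09). Rrm1 had 129, 125, 158, 150.0 and 117 CPM in the miR-155 KO smoke mice, against 97.6, 84.2, 83.7, 92.7 and 102 CPM in the miR-155 KO air mice. In WT, Rrm1 had 167, 161, 158, 148 and 153 CPM in the smoke mice, against 85.8, 92.2, 106, 97.2 and 87.9 CPM in the air mice. Here too the smoke and air mice did not overlap in either genotype. Rrm1 rose by 0.55 ± 0.08 log2 in miR-155 KO (limma adjusted p 1.99e-05) and by 0.75 ± 0.08 in WT (adjusted p 1.08e-07). Tk1, the thymidine kinase of the salvage pathway, averaged 45.7 ± 8.15 CPM in miR-155 KO smoke and 33.1 ± 10.5 in miR-155 KO air, and 55.9 ± 8.94 in WT smoke and 35.2 ± 4.51 in WT air. Tk1 rose by 0.51 ± 0.17 log2 in miR-155 KO (limma adjusted p 0.041) and by 0.66 ± 0.17 in WT (adjusted p 0.00536). Tyms, thymidylate synthase, averaged 24.8 ± 4.84 CPM in miR-155 KO smoke and 16.4 ± 7.14 in miR-155 KO air, and 28.5 ± 2.77 in WT smoke and 19.3 ± 2.61 in WT air. Tyms rose by 0.71 ± 0.22 log2 in miR-155 KO (limma adjusted p 0.0276), and its log2 change in WT was 0.57 ± 0.22 (adjusted p 0.0657). Dut, the enzyme that breaks down dUTP, averaged 16.9 ± 3.7 CPM in miR-155 KO smoke and 16.7 ± 3.94 in miR-155 KO air, and 24.6 ± 2.38 in WT smoke and 18.2 ± 3.54 in WT air. Dut passed in neither genotype, with log2 changes of 0.01 ± 0.19 in miR-155 KO (limma adjusted p 0.98) and 0.45 ± 0.19 in WT (adjusted p 0.0878). So 4 of these 5 genes rose in miR-155 KO and 3 of 5 in WT, beside 7.05% and 9.66% of all genes. In miR-155 KO the call of Tk1 was lost without IIIa5, IIIb1, IIIb3, IVa2, IVa4, IVa5 or IVb2 (highest adjusted p 0.148) and that of Tyms without IIIb1, IIIb3, IVa2 or IVa5 (highest adjusted p 0.104).

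**Figure D2:**
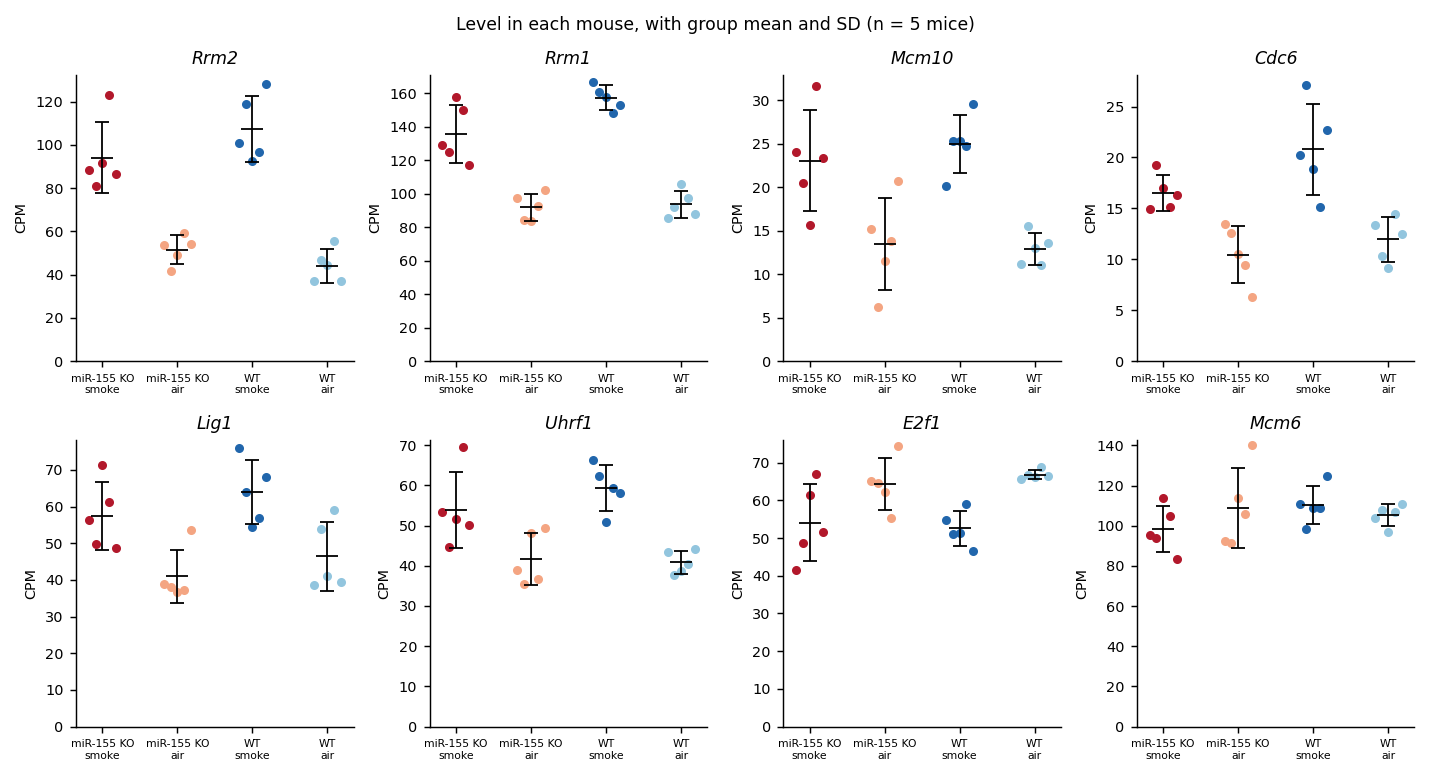
CPM of 8 members in each mouse (points), with the group mean and SD (black, n = 5), for miR-155 KO smoke, miR-155 KO air, WT smoke and WT air from left to right. Rrm2 and Rrm1 part smoke from air in both genotypes, E2f1 is lower in smoke than in air in WT, and the 4 groups of Mcm6 overlap.

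In origin licensing, 1 of 10 genes rose in each genotype, and it was Cdc6, the loading factor that recruits the Mcm hexamer. That count is near the share of all genes, 7.05% in miR-155 KO and 9.66% in WT. Cdc6 had 14.9, 19.3, 17, 15.1 and 16.3 CPM in the miR-155 KO smoke mice, against 13.5, 12.6, 10.5, 9.44 and 6.32 CPM in the miR-155 KO air mice. In WT, Cdc6 had 20.2, 27.1, 18.9, 15.1 and 22.7 CPM in the smoke mice, against 13.4, 10.3, 9.11, 14.5 and 12.5 CPM in the air mice. No smoke mouse overlapped the air mice of its genotype. Cdc6 rose by 0.70 ± 0.21 log2 in miR-155 KO (limma adjusted p 0.0226) and by 0.79 ± 0.21 in WT (adjusted p 0.00663). The miR-155 KO call was lost without IIIb4 or IVa4 (highest adjusted p 0.0771), and without IIIb2, IIIb3 and IIIb4 together its adjusted p was 0.431. Cdt1, the partner of Cdc6 in loading, averaged 38.5 ± 10.7 CPM in miR-155 KO smoke and 32.5 ± 5.51 in miR-155 KO air, and 39.2 ± 4.25 in WT smoke and 37.9 ± 4.86 in WT air. Cdt1 passed in neither genotype, with log2 changes of 0.21 ± 0.16 in miR-155 KO (limma adjusted p 0.399) and 0.05 ± 0.16 in WT (adjusted p 0.869).

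The helicase subunits themselves, Mcm2 to Mcm7, passed in neither genotype, and their median log2 change was 0.02 in miR-155 KO and 0.17 in WT. Mcm2 had 57, 57.7, 64.2, 58.7 and 53.4 CPM in the miR-155 KO smoke mice, against 49.2, 38.5, 59.5, 57.2 and 55.9 CPM in the miR-155 KO air mice. In WT, Mcm2 had 65.7, 63.7, 67.9, 65.3 and 72.1 CPM in the smoke mice, against 44.3, 57.1, 57.9, 61.3 and 60 CPM in the air mice. The 5 WT smoke values of Mcm2 lay above the 5 WT air values, while the miR-155 KO groups overlapped. Mcm2 passed in neither genotype, with log2 changes of 0.18 ± 0.11 in miR-155 KO (limma adjusted p 0.3) and 0.26 ± 0.11 in WT (adjusted p 0.083). Averaged over both genotypes Mcm2 rose by 0.22 ± 0.08 log2 (limma adjusted p 0.0284), a call lost without Ia3, IIb3, IIIb1 or IVa5 (highest adjusted p 0.0696). Mcm3 to Mcm7 form the rest of the ring and passed in none of the smoke contrasts. Mcm3 averaged 99.8 ± 9.13 CPM in miR-155 KO smoke and 101 ± 5.06 in miR-155 KO air, and 114 ± 10.2 in WT smoke and 102 ± 9.7 in WT air. Mcm4 averaged 74.7 ± 6.91 CPM in miR-155 KO smoke and 76.6 ± 5.7 in miR-155 KO air, and 81.4 ± 4.99 in WT smoke and 85.3 ± 8.83 in WT air. Their log2 changes were -0.02 in miR-155 KO (95% interval -0.19 to 0.15) and 0.17 in WT (0.00 to 0.34) for Mcm3, and -0.04 in miR-155 KO (95% interval -0.21 to 0.14) and -0.06 in WT (-0.24 to 0.11) for Mcm4. All of these intervals include 0. Mcm5 averaged 56.6 ± 4.14 CPM in miR-155 KO smoke and 48.5 ± 8.74 in miR-155 KO air, and 69.3 ± 9.45 in WT smoke and 61.5 ± 6.53 in WT air. The log2 change of Mcm5 was 0.24 in miR-155 KO (95% interval 0.00 to 0.47) and 0.17 in WT (-0.07 to 0.40). Mcm6 and Mcm7 are subunits of the core of the hexamer that unwinds DNA. Mcm6 averaged 98.4 ± 11.4 CPM in miR-155 KO smoke and 109 ± 19.9 in miR-155 KO air, and 111 ± 9.42 in WT smoke and 105 ± 5.2 in WT air. Mcm7 averaged 83.1 ± 11.4 CPM in miR-155 KO smoke and 80 ± 9.04 in miR-155 KO air, and 94.7 ± 2.29 in WT smoke and 81 ± 8.4 in WT air. The log2 change of Mcm6 was -0.13 in miR-155 KO (95% interval -0.33 to 0.07) and 0.07 in WT (-0.13 to 0.27), and that of Mcm7 0.05 in miR-155 KO (95% interval -0.14 to 0.25) and 0.23 in WT (0.04 to 0.43). As for Mcm2, the WT smoke values of Mcm7 (90.9 to 96.9 CPM) lay above the WT air values (68.7 to 89.9 CPM). The limma adjusted p of Mcm7 in WT was 0.084.

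The 2 listed subunits of the origin recognition complex, which marks the sites where licensing occurs, passed in neither genotype. Orc1, its largest subunit, averaged 1.88 ± 0.775 CPM in miR-155 KO smoke and 2.4 ± 1.21 in miR-155 KO air, and 3.2 ± 0.999 in WT smoke and 2.02 ± 1.19 in WT air. Orc6, its smallest, averaged 18.9 ± 4.61 CPM in miR-155 KO smoke and 16.8 ± 2.63 in miR-155 KO air, and 19.9 ± 1.38 in WT smoke and 16.8 ± 2.63 in WT air. Orc1 was the scarcest member, with 3 reads in the library where it was lowest, and its log2 change was -0.16 in miR-155 KO (95% interval -1.24 to 0.92) and 0.75 in WT (-0.33 to 1.83). For Orc6 it was 0.15 in miR-155 KO (95% interval -0.21 to 0.51) and 0.25 in WT (-0.10 to 0.61).

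Genes that activate the helicase rose in miR-155 KO in 1 of 6 cases, Mcm10, and in WT in 5 of 6, of which the Gins4 call is the least firm. The shares of all genes that rose were 7.05% in miR-155 KO and 9.66% in WT. Mcm10, an initiation factor that binds the activated helicase, had 24.1, 20.5, 15.7, 31.7 and 23.4 CPM in the miR-155 KO smoke mice, against 15.2, 6.22, 11.5, 13.8 and 20.7 CPM in the miR-155 KO air mice. In WT, Mcm10 had 20.2, 25.3, 25.3, 24.7 and 29.6 CPM in the smoke mice, against 11.2, 15.6, 13, 11.1 and 13.6 CPM in the air mice. The WT smoke mice lay above all WT air mice, and the miR-155 KO groups overlapped. Mcm10 rose by 0.84 ± 0.23 log2 in miR-155 KO (limma adjusted p 0.0119) and by 0.96 ± 0.23 in WT (adjusted p 0.00295). Cdc45, a subunit of the active helicase, had 19.7, 24.1, 19.5, 26.1 and 21.3 CPM in the miR-155 KO smoke mice, against 17.6, 18.2, 14.4, 19 and 15.2 CPM in the miR-155 KO air mice. In WT, Cdc45 had 23.5, 22.8, 30.9, 25.6 and 22.8 CPM in the smoke mice, against 15.2, 21.7, 18.5, 17.2 and 12.8 CPM in the air mice. Smoke and air did not overlap in either genotype, although only the WT change passed. Cdc45 had a log2 change of 0.39 ± 0.16 in miR-155 KO (limma adjusted p 0.105) and rose by 0.57 ± 0.16 in WT (adjusted p 0.0102).

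GINS is the complex of 4 proteins that joins Cdc45 and the Mcm hexamer in the active helicase. Gins1 averaged 11.7 ± 1.17 CPM in miR-155 KO smoke and 10.9 ± 2.84 in miR-155 KO air, and 15.5 ± 1.98 in WT smoke and 8.34 ± 1.46 in WT air. Gins2 averaged 20.8 ± 5.33 CPM in miR-155 KO smoke and 19.5 ± 3.24 in miR-155 KO air, and 24.2 ± 2.93 in WT smoke and 16.3 ± 2.12 in WT air. Gins1 had a log2 change of 0.13 ± 0.21 in miR-155 KO (limma adjusted p 0.75) and rose by 0.90 ± 0.21 in WT (adjusted p 0.0025). Gins2 had a log2 change of 0.08 ± 0.17 in miR-155 KO (limma adjusted p 0.826) and rose by 0.57 ± 0.17 in WT (adjusted p 0.0157). The group mean of Gins1 and of Gins2 was highest in WT smoke. Gins3 averaged 8.64 ± 2.85 CPM in miR-155 KO smoke and 8.62 ± 2.03 in miR-155 KO air, and 8.41 ± 3.01 in WT smoke and 8.16 ± 1.34 in WT air. Gins4 averaged 31.3 ± 2.15 CPM in miR-155 KO smoke and 31.9 ± 4.11 in miR-155 KO air, and 32 ± 3.13 in WT smoke and 25.5 ± 1.11 in WT air. Gins3 passed in neither genotype, with log2 changes of -0.02 ± 0.29 in miR-155 KO (limma adjusted p 0.972) and -0.03 ± 0.29 in WT (adjusted p 0.966). Gins4 had a log2 change of -0.02 ± 0.12 in miR-155 KO (limma adjusted p 0.937) and rose by 0.32 ± 0.12 in WT (adjusted p 0.0458). The Gins4 call was lost without Ia3, Ia4, Ib1, Ib2, Ib4, IIa1, IIb1, IIb2, IIb3, IVa2, IVa4 or IVb4 (highest adjusted p 0.123). It was also lost under 5 other alternatives, which were the robust variance prior, log2 of CPM plus 1, the covariate for the letter of the mouse code, voom weights and removal of the length trend (adjusted p up to 0.219, with a log2 change of 0.21).

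None of the 6 polymerase and primase genes rose in either genotype, and Pold1 fell in miR-155 KO, where 8.45% of all genes fell. Pold1, the catalytic subunit of polymerase delta, which copies the lagging strand, had 35, 27.6, 23.3, 26.2 and 33.9 CPM in the miR-155 KO smoke mice, against 37.1, 36.4, 45.7, 39.9 and 42.2 CPM in the miR-155 KO air mice. In WT, Pold1 had 32.8, 25.6, 32.8, 34.4 and 38.1 CPM in the smoke mice, against 35.4, 25, 36.4, 39.4 and 32.6 CPM in the air mice. The miR-155 KO smoke mice lay below all miR-155 KO air mice, and in WT the groups overlapped. Pold1 fell by 0.48 ± 0.14 log2 in miR-155 KO (limma adjusted p 0.0177), and its log2 change in WT was -0.04 ± 0.14 (adjusted p 0.886). The call was lost without IVa5 (highest adjusted p 0.0593), and without IIIb2, IIIb3 and IIIb4 together its adjusted p was 0.274. Pole, the catalytic subunit of the leading-strand polymerase epsilon, had 31.6, 35.3, 36, 46.6 and 34.5 CPM in the miR-155 KO smoke mice, against 28, 29.3, 31.3, 18.7 and 41.1 CPM in the miR-155 KO air mice. In WT, Pole had 30.3, 29.3, 30.9, 34.3 and 32.8 CPM in the smoke mice, against 30.3, 25.3, 26.8, 26.9 and 22 CPM in the air mice. Smoke and air values of Pole overlapped in both genotypes. Pole passed in neither genotype, with log2 changes of 0.34 ± 0.15 in miR-155 KO (limma adjusted p 0.14) and 0.27 ± 0.15 in WT (adjusted p 0.229). Averaged over genotypes it rose by 0.30 ± 0.11 log2 (limma adjusted p 0.032), a call lost without Ib4, IIb2, IIIb3 or IVb2 (highest adjusted p 0.0721).

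Polymerase alpha and primase make the short primers that start each new stretch of DNA. Pola1, the catalytic subunit of polymerase alpha, averaged 28.4 ± 5.34 CPM in miR-155 KO smoke and 25.3 ± 7.39 in miR-155 KO air, and 32 ± 2.49 in WT smoke and 26.5 ± 8.81 in WT air. Pola2, its accessory subunit, averaged 35.9 ± 5.32 CPM in miR-155 KO smoke and 37.1 ± 2.92 in miR-155 KO air, and 43.6 ± 7.15 in WT smoke and 40.2 ± 4.16 in WT air. The log2 change of Pola1 was 0.21 in miR-155 KO (95% interval -0.21 to 0.63) and 0.32 in WT (-0.09 to 0.74), and that of Pola2 -0.05 in miR-155 KO (95% interval -0.30 to 0.19) and 0.11 in WT (-0.14 to 0.36). Prim1, the catalytic subunit of primase, averaged 23.9 ± 3.89 CPM in miR-155 KO smoke and 19.7 ± 2.03 in miR-155 KO air, and 24.4 ± 2.19 in WT smoke and 22.6 ± 3.49 in WT air. Prim2, the large subunit of primase, averaged 32.6 ± 4.62 CPM in miR-155 KO smoke and 30.8 ± 8.87 in miR-155 KO air, and 37.2 ± 3.61 in WT smoke and 29.9 ± 3.44 in WT air. Their log2 changes were 0.27 in miR-155 KO (95% interval -0.03 to 0.57) and 0.12 in WT (-0.18 to 0.42) for Prim1, and 0.12 in miR-155 KO (95% interval -0.20 to 0.44) and 0.32 in WT (0.00 to 0.64) for Prim2.

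The clamp, its loader and the enzymes that finish the lagging strand rose in 2 of 8 cases in miR-155 KO and in 5 of 8 in WT. Beside these counts stand 7.05% of all genes in miR-155 KO and 9.66% in WT. Lig1, the ligase that seals the pieces of the lagging strand, had 56.3, 49.9, 71.4, 61.2 and 48.7 CPM in the miR-155 KO smoke mice, against 39, 38.2, 36.8, 37.2 and 53.7 CPM in the miR-155 KO air mice. In WT, Lig1 had 76.1, 64.1, 54.5, 56.8 and 68.1 CPM in the smoke mice, against 38.5, 53.9, 41.2, 59 and 39.4 CPM in the air mice. Smoke and air mice overlapped by a few values in both genotypes. Lig1 rose by 0.49 ± 0.14 log2 in miR-155 KO (limma adjusted p 0.0117) and by 0.47 ± 0.14 in WT (adjusted p 0.0107). Fen1, the endonuclease that trims their ends, had 40, 43.2, 31.2, 55.9 and 38.4 CPM in the miR-155 KO smoke mice, against 31.5, 31.8, 44.6, 22.4 and 29.2 CPM in the miR-155 KO air mice. In WT, Fen1 had 58.2, 43.7, 56.3, 56.9 and 62 CPM in the smoke mice, against 32.1, 37.6, 33.1, 42.7 and 39.1 CPM in the air mice. In WT, smoke lay above air without overlap. Fen1 had a log2 change of 0.40 ± 0.15 in miR-155 KO (limma adjusted p 0.0786) and rose by 0.58 ± 0.15 in WT (adjusted p 0.00549). Pcna, the sliding clamp, averaged 127 ± 8.26 CPM in miR-155 KO smoke and 120.0 ± 20.6 in miR-155 KO air, and 145 ± 4.93 in WT smoke and 121 ± 12.7 in WT air. Pcna had a log2 change of 0.10 ± 0.09 in miR-155 KO (limma adjusted p 0.524) and rose by 0.27 ± 0.09 in WT (adjusted p 0.029). The Pcna call was lost without Ia3, Ia4, Ib4, IIa5 or IIb2 (highest adjusted p 0.0883) and, with a variance prior without a mean trend or with the trend on transcript length removed, its adjusted p reached 0.175.

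Rfc1 to Rfc5 form the complex that loads the clamp. Rfc1, its largest subunit, averaged 73.1 ± 3.8 CPM in miR-155 KO smoke and 58.7 ± 14.7 in miR-155 KO air, and 73.9 ± 9.11 in WT smoke and 68.3 ± 6.76 in WT air. Rfc2 averaged 43.6 ± 5.94 CPM in miR-155 KO smoke and 39.8 ± 8.95 in miR-155 KO air, and 53 ± 2.64 in WT smoke and 39.8 ± 4.35 in WT air. Rfc1 passed in neither genotype, with log2 changes of 0.35 ± 0.12 in miR-155 KO (limma adjusted p 0.0512) and 0.11 ± 0.12 in WT (adjusted p 0.588). Rfc2 had a log2 change of 0.15 ± 0.13 in miR-155 KO (limma adjusted p 0.475) and rose by 0.42 ± 0.13 in WT (adjusted p 0.0164). The Rfc2 call was lost without Ib1 (highest adjusted p 0.0567). Rfc3 averaged 15.2 ± 4.01 CPM in miR-155 KO smoke and 13.3 ± 3.64 in miR-155 KO air, and 20.9 ± 3.47 in WT smoke and 15.3 ± 3.64 in WT air. Rfc4 averaged 9.69 ± 1.51 CPM in miR-155 KO smoke and 6.21 ± 2.09 in miR-155 KO air, and 11.4 ± 0.903 in WT smoke and 6.28 ± 3.12 in WT air. Rfc3 passed in neither genotype, with log2 changes of 0.20 ± 0.22 in miR-155 KO (limma adjusted p 0.616) and 0.46 ± 0.22 in WT (adjusted p 0.148). Rfc4 had a log2 change of 0.71 ± 0.31 in miR-155 KO (limma adjusted p 0.121) and rose by 0.98 ± 0.31 in WT (adjusted p 0.0208). Rfc4 had the largest log2 change in WT among the 8 genes of this class, and its call was lost without Ia4, Ib1, Ib2 or IIa1 (highest adjusted p 0.0695). Rfc5 averaged 22.5 ± 3.65 CPM in miR-155 KO smoke and 14.9 ± 2.81 in miR-155 KO air, and 23.3 ± 4.16 in WT smoke and 17.5 ± 1.5 in WT air. Rfc5 rose by 0.59 ± 0.17 log2 in miR-155 KO (limma adjusted p 0.0162), and its log2 change in WT was 0.39 ± 0.17 (adjusted p 0.102). In miR-155 KO the call of Rfc5 was lost without IIIb3 or IVa2 (highest adjusted p 0.0516).

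Replication protein A coats the single strands that the helicase exposes, and 1 of its 3 subunits rose, Rpa1 in miR-155 KO. In that genotype 7.05% of all genes rose. Rpa1, the largest subunit, had 106, 104, 111, 114 and 113 CPM in the miR-155 KO smoke mice, against 88.9, 94.5, 102, 64.5 and 104 CPM in the miR-155 KO air mice. In WT, Rpa1 had 116, 116, 115, 120.0 and 129 CPM in the smoke mice, against 107, 110.0, 111, 95.6 and 97 CPM in the air mice. The WT smoke mice lay above the WT air mice without overlap, and the miR-155 KO groups overlapped. Rpa1 rose by 0.29 ± 0.09 log2 in miR-155 KO (limma adjusted p 0.0341), and its log2 change in WT was 0.20 ± 0.09 (adjusted p 0.142). The call was lost without IIIb3, IVa5, IVb2 or IVb4 (highest adjusted p 0.121). Rpa3, the smallest subunit, had 8.61, 11.3, 12.1, 10.3 and 11.9 CPM in the miR-155 KO smoke mice, against 11.6, 17.8, 10.1, 17.4 and 9.66 CPM in the miR-155 KO air mice. In WT, Rpa3 had 12.8, 12.3, 10.8, 14.1 and 9.84 CPM in the smoke mice, against 11.4, 12.8, 10.2, 10.8 and 15.2 CPM in the air mice. These values overlapped in both genotypes. Rpa3 passed in neither genotype, with log2 changes of -0.26 ± 0.22 in miR-155 KO (limma adjusted p 0.474) and -0.01 ± 0.22 in WT (adjusted p 0.985). Rpa2, the middle subunit, averaged 20.6 ± 2.19 CPM in miR-155 KO smoke and 21.7 ± 4.35 in miR-155 KO air, and 27.7 ± 2.12 in WT smoke and 24.4 ± 2.79 in WT air. Rpa2 passed in neither genotype, with log2 changes of -0.06 ± 0.15 in miR-155 KO (limma adjusted p 0.863) and 0.19 ± 0.15 in WT (adjusted p 0.414).

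Among the genes of chromatin assembly and histone supply, 3 of 5 rose in miR-155 KO and 1 of 5 in WT. The shares over all genes were 7.05% and 9.66%. Uhrf1, which reads DNA methylated on the old strand alone and brings the maintenance methylase to it, had 53.4, 44.6, 51.7, 69.6 and 50.2 CPM in the miR-155 KO smoke mice, against 39, 35.4, 48.1, 36.6 and 49.3 CPM in the miR-155 KO air mice. In WT, Uhrf1 had 66.2, 62.4, 50.8, 59.3 and 58.2 CPM in the smoke mice, against 43.3, 37.7, 38.8, 40.4 and 44.2 CPM in the air mice. The WT smoke mice lay above all WT air mice, and the miR-155 KO groups overlapped. Uhrf1 rose by 0.37 ± 0.12 log2 in miR-155 KO (limma adjusted p 0.0309) and by 0.54 ± 0.12 in WT (adjusted p 0.0011). Chaf1a, the large subunit of the histone chaperone CAF-1, had 36.9, 28.4, 42.7, 42.2 and 30.9 CPM in the miR-155 KO smoke mice, against 24, 24.5, 29.2, 19.8 and 20.8 CPM in the miR-155 KO air mice. In WT, Chaf1a had 35.2, 43.2, 40.5, 43.5 and 40.1 CPM in the smoke mice, against 32.7, 30.6, 26.2, 36.6 and 32.7 CPM in the air mice. Here smoke and air overlapped in both genotypes. Chaf1a rose by 0.61 ± 0.14 log2 in miR-155 KO (limma adjusted p 0.00198), and its log2 change in WT was 0.36 ± 0.14 (adjusted p 0.0599). Chaf1b, its middle subunit, averaged 21.5 ± 3.77 CPM in miR-155 KO smoke and 14.4 ± 3.8 in miR-155 KO air, and 28.5 ± 2.76 in WT smoke and 21.1 ± 2.36 in WT air. Chaf1b rose by 0.61 ± 0.18 log2 in miR-155 KO (limma adjusted p 0.0167), and its log2 change in WT was 0.43 ± 0.18 (adjusted p 0.077). The miR-155 KO calls were lost without IIIa5, IIIb1, IIIb3, IVa2 or IVb2 (highest adjusted p 0.12) for Uhrf1 and without IIIb2 or IVa2 (highest adjusted p 0.0609) for Chaf1b. Slbp, which binds the stem-loop of histone mRNAs, averaged 48 ± 3.46 CPM in miR-155 KO smoke and 48.2 ± 5.09 in miR-155 KO air, and 59.2 ± 6.91 in WT smoke and 48.8 ± 6.02 in WT air. Atad2, a bromodomain ATPase of chromatin, averaged 45.5 ± 5.31 CPM in miR-155 KO smoke and 37.8 ± 10.4 in miR-155 KO air, and 45.8 ± 4.56 in WT smoke and 40.8 ± 4.28 in WT air. The log2 change of Slbp was 0.00 in miR-155 KO (95% interval -0.22 to 0.21) and 0.28 in WT (0.06 to 0.50), and that of Atad2 0.31 in miR-155 KO (95% interval 0.01 to 0.61) and 0.17 in WT (-0.14 to 0.47).

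Of the 4 genes of S phase entry and its checkpoint, Clspn rose in both genotypes and Ccne1 rose in WT, where E2f1 fell. Over all genes 7.05% rose in miR-155 KO, and 9.66% rose and 12.8% fell in WT. Clspn, a checkpoint adaptor that travels with the fork, had 30.4, 28.4, 33.7, 45.6 and 33.9 CPM in the miR-155 KO smoke mice, against 19.7, 24.7, 24.4, 26.1 and 30.5 CPM in the miR-155 KO air mice. In WT, Clspn had 39.2, 48, 32.8, 39 and 33.9 CPM in the smoke mice, against 18.8, 29.3, 26, 28.9 and 21.4 CPM in the air mice. The WT groups did not overlap. Clspn rose by 0.45 ± 0.15 log2 in miR-155 KO (limma adjusted p 0.0457) and by 0.64 ± 0.15 in WT (adjusted p 0.00275). In miR-155 KO the call was lost without IIa1, IIb2, IIIa5, IIIb1, IIIb2, IIIb3, IVa2, IVa5, IVb2 or IVb4 (highest adjusted p 0.153). Ccne1, cyclin E1, which activates Cdk2 at the start of S phase, had 12.2, 10.3, 10.5, 14.5 and 9.96 CPM in the miR-155 KO smoke mice, against 10.5, 7.19, 9.16, 5.66 and 7.93 CPM in the miR-155 KO air mice. In WT, Ccne1 had 14.1, 11.1, 13.4, 17.3 and 22.8 CPM in the smoke mice, against 8.8, 5.86, 6.55, 9.81 and 5.95 CPM in the air mice. Again the WT smoke mice lay above all WT air mice. Ccne1 had a log2 change of 0.52 ± 0.24 in miR-155 KO (limma adjusted p 0.161) and rose by 1.07 ± 0.24 in WT (adjusted p 0.00159). Ccne2, cyclin E2, averaged 13 ± 4.39 CPM in miR-155 KO smoke and 8.43 ± 2.29 in miR-155 KO air, and 18.2 ± 3.62 in WT smoke and 14.3 ± 3.67 in WT air. Ccne2 passed in neither genotype, with log2 changes of 0.60 ± 0.25 in miR-155 KO (limma adjusted p 0.111) and 0.36 ± 0.25 in WT (adjusted p 0.343). E2f1, a transcription factor that drives S phase genes, averaged 54.1 ± 10.2 CPM in miR-155 KO smoke and 64.3 ± 6.87 in miR-155 KO air, and 52.6 ± 4.67 in WT smoke and 66.8 ± 1.21 in WT air. All WT smoke values of E2f1 lay below all WT air values. E2f1 had a log2 change of -0.27 ± 0.11 in miR-155 KO (limma adjusted p 0.0966) and fell by 0.35 ± 0.11 in WT (adjusted p 0.0179). The E2f1 call was lost without IIb3 (highest adjusted p 0.0553).

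Promoter windows of the members were searched for motifs known from cell cycle genes. RefSeq promoter windows on GRCm38.p6, from 250 bases before to 50 after the transcription start, matched 38 of the 47 members, with 43 windows. An E2F motif, TTTCGCGC or TTTGGCGC on either strand, stood in the windows of 11 of the 38 (28.9%), beside 1.83% of the 9379 genes of the table with a window and 0.929% of all 27025 genes with one. These letters were found for 6 of 9 licensing genes and 4 of 5 of the Mcm2 to Mcm7 genes with a window, for 0 of 5 nucleotide supply genes and for 0 of 3 helicase activation genes. They stood at 3 of the 18 members with a window that rose in either genotype, Lig1, Uhrf1 and Clspn, and at 8 of the 16 with a window that passed in none of the smoke contrasts. A CCAAT box, CCAAT on either strand, was in the windows of 63.2% of the members and 43.3% of the genes of the table, and the CHR motif TTTGAA or TTCGAA, known from mitotic promoters, in 15.8% and 16.7%. Matches can share bases, as forward and reverse E2F matches do, and as an E2F match and a CCAAT box do at Mcm7. A match describes letters and not a bound factor. Other forms of the E2F motif were not searched, so a window without a match is not shown to lack an E2F site. RefSeq starts can also differ from GENCODE starts. For some members, such as Cdc6, Dut and E2f1, the 250 bases before the RefSeq start lie inside the GENCODE gene.

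The 250 bases before the start are shown 5′ to 3′ for Mcm6, which passed in neither genotype, and for Rrm2, which had the smallest p. Capitals mark E2F and CCAAT matches on either strand.
Mcm6, chr1:128359706-128359955, minus strand: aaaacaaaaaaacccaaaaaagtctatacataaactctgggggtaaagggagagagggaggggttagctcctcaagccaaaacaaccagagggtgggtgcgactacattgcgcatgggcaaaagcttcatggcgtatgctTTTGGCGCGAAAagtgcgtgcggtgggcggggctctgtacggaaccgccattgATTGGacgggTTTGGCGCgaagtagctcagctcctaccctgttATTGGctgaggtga
Rrm2, chr12:24708004-24708253, plus strand: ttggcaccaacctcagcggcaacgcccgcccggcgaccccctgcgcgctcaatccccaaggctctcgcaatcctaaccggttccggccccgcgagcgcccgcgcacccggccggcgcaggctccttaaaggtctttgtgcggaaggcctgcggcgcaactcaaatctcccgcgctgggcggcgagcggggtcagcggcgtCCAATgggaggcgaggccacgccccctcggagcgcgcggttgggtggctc
The Mcm6 stretch holds 3 E2F matches, of which 2 on opposite strands share bases from 110 to 99 before the start, and 2 CCAAT boxes. The Rrm2 stretch holds 0 E2F matches and 1 CCAAT box. E2F matches with 12 bases on each side are shown for other members with a match before the start, with the matching letters in capitals.
Orc1, chr4:108579415-108579446, plus strand: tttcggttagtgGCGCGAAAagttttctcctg
Mcm5, chr8:75109344-75109379, plus strand: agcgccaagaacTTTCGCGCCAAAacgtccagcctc
Pola1, chrX:93632274-93632305, minus strand: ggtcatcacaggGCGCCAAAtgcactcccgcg
Rfc3, chr5:151651199-151651230, minus strand: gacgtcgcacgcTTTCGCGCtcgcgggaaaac
Uhrf1, chr17:56304116-56304147, plus strand: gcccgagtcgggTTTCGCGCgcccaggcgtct
Of these 5 genes, Uhrf1 rose with smoke in both genotypes, and Orc1, Mcm5, Pola1 and Rfc3 passed in neither.

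Summed over the 47 members, the level per mouse was 1870 to 2240 CPM in miR-155 KO smoke and 1630 to 1900 CPM in miR-155 KO air, and 2210 to 2380 CPM in WT smoke and 1740 to 1900 CPM in WT air. The WT smoke mice lay above all WT air mice, while the miR-155 KO groups met at their edges, with 1870 CPM in IVb4 of the smoke group and 1900 in IIIb4 of the air group. The Mcm2 to Mcm7 genes gave 424 to 518 CPM in miR-155 KO smoke and 424 to 516 in miR-155 KO air, and 497 to 571 in WT smoke and 459 to 516 in WT air, so the groups overlapped in both genotypes. For 31 genes of mitosis and G2/M the sums were 1820 to 2550 CPM in miR-155 KO smoke and 1250 to 1330 in miR-155 KO air, and 1860 to 2200 in WT smoke and 1150 to 1310 in WT air, without overlap in either genotype.

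**Figure D3:**
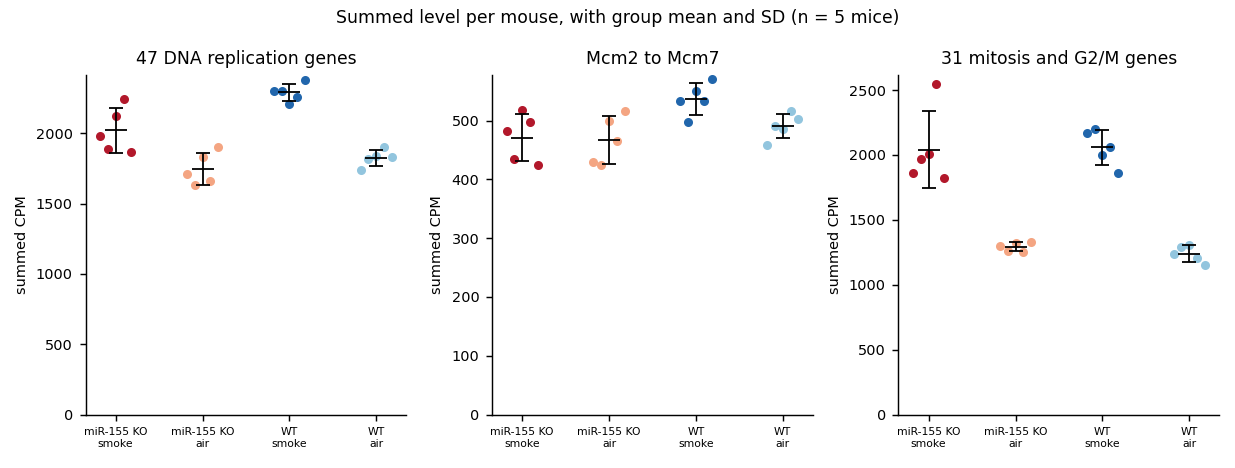
Summed CPM per mouse (points) over the 47 members (left), Mcm2 to Mcm7 (middle) and 31 mitosis and G2/M genes (right), with the group mean and SD (black, n = 5 mice), for miR-155 KO smoke, miR-155 KO air, WT smoke and WT air. The mitosis sums of smoke mice start at 1820 CPM and those of air mice end at 1330 CPM, while the Mcm2 to Mcm7 sums overlap.

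Limma called 28 of the 31 mitosis and G2/M genes higher with smoke in miR-155 KO and 28 of 31 in WT, and none lower, with median log2 changes of 0.72 and 0.80. These are 90.3% in each genotype, beside 7.05% of all genes in miR-155 KO and 9.66% in WT. Mki67, the marker of cycling cells, rose by 0.71 ± 0.08 log2 in miR-155 KO (limma adjusted p 1.51e-07) and by 0.80 ± 0.08 in WT (1.35e-08). Birc5, survivin of the chromosomal passenger complex, rose by 1.01 ± 0.13 and 1.14 ± 0.13, Ccnb2, cyclin B2, by 0.82 ± 0.13 and 1.35 ± 0.13, and Kif20a, a kinesin of cell division, by 0.79 ± 0.13 and 1.18 ± 0.13, in miR-155 KO and WT in that order. The plot of cumulative distributions sets these genes beside the 47 members. The difference between the lists was not tested.

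**Figure D4:**
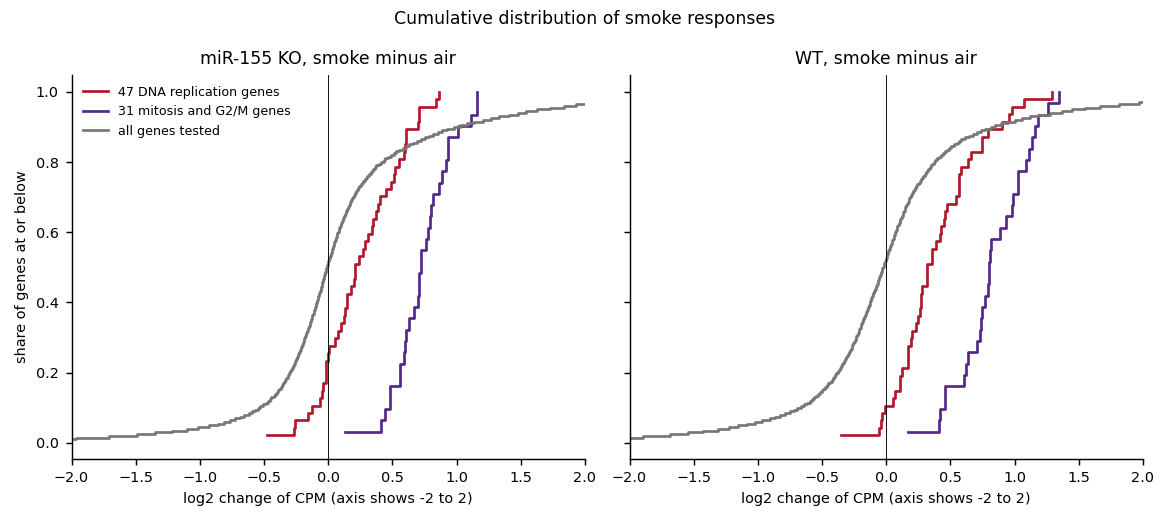
Share of genes at or below each log2 change with smoke, in miR-155 KO (left) and WT (right), for the 47 members (red), 31 mitosis and G2/M genes (purple) and all 13225 genes (grey, drawn from its percentiles). The median of the members is 0.21 in miR-155 KO and 0.32 in WT, that of the mitosis genes 0.72 and 0.80, and that of all genes -0.01 and -0.02.

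In a list of 49 other DNA replication genes 5 rose and 2 fell in miR-155 KO, and 10 rose and 3 fell in WT, with medians of 0.09 and 0.20. The shares that rose were 10.2% in miR-155 KO and 20.4% in WT, beside 7.05% and 9.66% of all genes. Of all genes, 8.45% fell in miR-155 KO and 12.8% in WT. Samhd1, which breaks down deoxyribonucleotides, fell by 0.32 ± 0.06 log2 in miR-155 KO (limma adjusted p 0.00013) and by 0.38 ± 0.06 in WT (5.38e-06). Asf1b, a histone chaperone, rose by 0.75 ± 0.14 and 0.79 ± 0.14, Dck, the deoxycytidine kinase of nucleotide salvage, by 0.66 ± 0.12 and 0.55 ± 0.12, and Dnmt1, the maintenance DNA methylase, by 0.40 ± 0.07 and 0.20 ± 0.07, in miR-155 KO and WT in that order. Of 12 genes of the E2F and RB families 2 rose and 1 fell in miR-155 KO (Tfdp1), and 2 rose and 2 fell in WT (Rb1 and Rbl1). Thus 16.7% of this small list rose in each genotype, beside the same shares of all genes as above. The genes that rose were in both genotypes E2f8 and E2f7, repressors of the family, with E2f8 at 0.94 ± 0.23 in miR-155 KO and 0.82 ± 0.23 in WT, and E2f7 at 0.85 ± 0.28 and 0.98 ± 0.28.

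Cyclins and kinases that act before mitosis went both ways, with 3 of 9 higher and 3 lower in miR-155 KO and 4 higher and 2 lower in WT. Of all genes, 7.05% were higher and 8.45% lower in miR-155 KO, and 9.66% higher and 12.8% lower in WT. Cdk6, a kinase of the G1 phase, fell by 0.69 ± 0.08 log2 in miR-155 KO (limma adjusted p 8.85e-07) and by 0.88 ± 0.08 in WT (7.30e-09), and Ccnd2, a cyclin partner of it, fell by 0.42 ± 0.10 and 0.53 ± 0.10. Ccna2, cyclin A2 of S phase and G2, rose by 0.69 ± 0.13 in miR-155 KO and 1.19 ± 0.13 in WT, and Cdk4, the close relative of Cdk6, by 0.29 ± 0.08 and 0.71 ± 0.08. Inhibitors of these kinases rose as well, 2 of 7 in miR-155 KO and 3 of 7 in WT, where Cdkn1b fell by 0.56 ± 0.12. Cdkn1a, which encodes p21, rose by 0.85 ± 0.11 in miR-155 KO and 0.81 ± 0.11 in WT, and Cdkn2d, an inhibitor of Cdk4 and Cdk6, by 1.25 ± 0.23 and 1.17 ± 0.23. Cdkn2c, another of that family, rose by 1.13 ± 0.27 in WT, and its log2 change in miR-155 KO was 0.45 ± 0.27 (adjusted p 0.28).

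Between genotypes in smoke, no member passed the limma threshold (1.58% of all genes did), although 44 of the 47 had a log2 difference, miR-155 KO minus WT, below 0, with a median log2 difference of -0.20 beside -0.02 over all genes. Above 0 were 3 of the 47 members and 6089 of all 13225 genes. At an unadjusted p under 0.05 limma had 14 members, all lower in miR-155 KO (7.51% of all genes were lower at that p), and with array weights it called 9 lower (3.83% of all genes), Mcm3, Mcm5, Mcm7, Pcna, Rfc2, Fen1, Rpa2, Rrm1 and Dut. The miR-155 KO mice lay below all WT mice in smoke for 5 members (2.54% of all genes), Gins1, Rpa1, Rpa2, Dut and Slbp. Rpa2 had 20.5, 20.3, 17.4, 23.6 and 21.2 CPM in miR-155 KO smoke, against 25, 26, 28.7, 29.1 and 29.9 CPM in WT smoke, a log2 difference of -0.43 ± 0.15 (limma adjusted p 0.154). Dut had 20, 18.5, 18.8, 10.6 and 16.6 CPM in miR-155 KO smoke, against 26.4, 22.5, 24.3, 22.3 and 27.7 CPM in WT smoke, a log2 difference of -0.57 ± 0.19 (limma adjusted p 0.138). Slbp had 47.5, 50.9, 51.4, 47.3 and 42.8 CPM in miR-155 KO smoke, against 59.5, 69.3, 54.3, 51.5 and 61.4 CPM in WT smoke, a log2 difference of -0.30 ± 0.11 (limma adjusted p 0.163). The smoke groups of these 3 genes did not overlap, and the differences missed the threshold.

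Between genotypes in air, no member passed either (0.416% of all genes did), and 33 of 47 had a log2 difference below 0, with a median of -0.03 beside -0.04 over all genes. Above 0 were 14 of the 47 members and 5710 of all 13225 genes. At an unadjusted p under 0.05 limma had 6, Mcm5, Rpa1, Chaf1a, Chaf1b and Ccne2 lower and Gins4 higher, where 11.6% of all genes passed at that p, so the count of members is near that of all genes. No member passed the limma test of the difference between the smoke responses of the genotypes (0.0% of all genes passed). At an unadjusted p under 0.05 that test had 4 members, Gins1, Gins4, Pold1 and Rrm2. Of all genes, 9.84% passed at that p, so this count too is near that of all genes. Each of the 4 differences was below 0, and for Pold1 this was a fall of 0.48 log2 in miR-155 KO beside a change of -0.04 in WT. The differences of log2 change, miR-155 KO minus WT, were -0.77 ± 0.30 (adjusted p 0.377) for Gins1, -0.34 ± 0.17 (adjusted p 0.5) for Gins4, -0.44 ± 0.20 (adjusted p 0.46) for Pold1 and -0.43 ± 0.18 (adjusted p 0.392) for Rrm2 by limma. A member that passed in a single genotype is thus not shown to respond differently in the other. Counts of members called between genotypes in air and in the difference of responses were 0 with array weights as well.

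The microRNA that the KO mice lack is shown with its seed, bases 2 to 8, in capitals, since a seed match in a transcript is what the microRNA pairs with. Its position on GRCm38.p6 and its letters are those of RefSeq.
mmu-miR-155-5p, chr16:84714143-84714165, plus strand: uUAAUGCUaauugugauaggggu
The matching letters AGCATTA stood in the 3′ UTR of 4 of the 47 members (8.51%), Cdt1, Mcm2, Mcm4 and Slbp, beside 9.02% of the 11282 genes of the table with an annotated 3′ UTR. None of these 4 passed between genotypes in smoke or in air. In smoke their log2 differences, miR-155 KO minus WT, were -0.06 ± 0.16 for Cdt1, -0.20 ± 0.11 for Mcm2, -0.13 ± 0.09 for Mcm4 and -0.30 ± 0.11 for Slbp. All 4 were below 0, as were 44 of the 47 members.

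The spread among mice of a group was widest in miR-155 KO air, for the members as for better expressed genes at large. The median SD of log2 CPM over the 47 members was 0.22 in miR-155 KO smoke, 0.28 in miR-155 KO air, 0.14 in WT smoke and 0.18 in WT air, beside 0.16, 0.23, 0.17 and 0.16 in the same order over genes whose log2 CPM averaged 3 or more. In miR-155 KO smoke, IVb2 had the highest value of 21 members and IVa5 that of 17, with mitosis sums of 2550 and 2010 CPM. IVa2, IVa4 and IVb4 were highest for 6, 2 and 1 members, with mitosis sums of 1860, 1970 and 1820 CPM. Per kilobase of the longest coding transcript, Pcna had the highest mean level over the 20 mice, 84.4 CPM per kb, followed by Mcm3 with 34.3, Rrm2 with 33.9 and Rrm1 with 29.9, and Orc1 the lowest with 0.787.

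**Figure D5:**
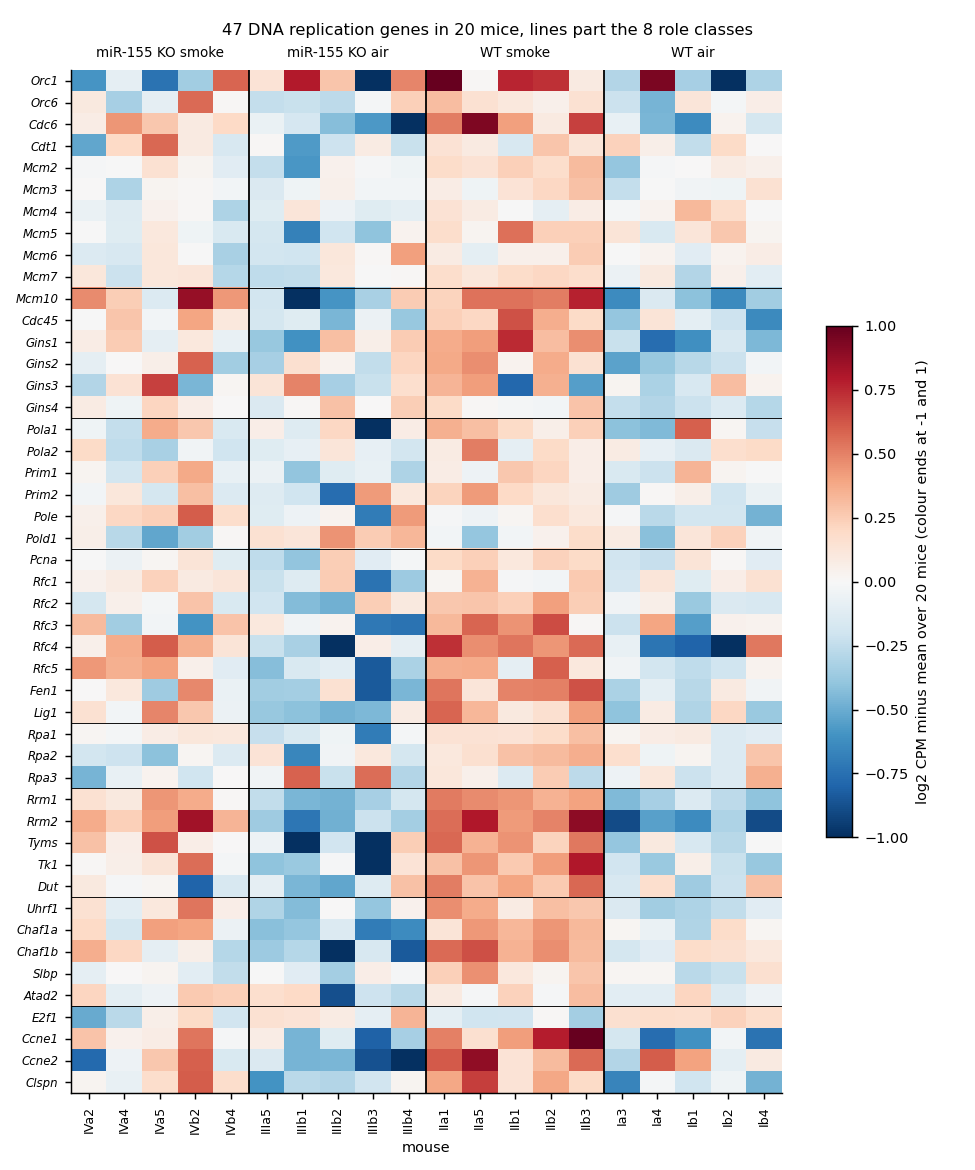
Log2 CPM of the 47 members (rows, lines part the 8 role classes) in the 20 mice (columns: miR-155 KO smoke, miR-155 KO air, WT smoke, WT air), minus the mean of the member over all mice. Red is above and blue below that mean, with the colour ending at -1 and 1. The Rrm2 row is red in every smoke mouse and blue in every air mouse, and the Mcm2 to Mcm7 rows hold both colours in smoke and in air.

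Some reads of members could belong to other genes, since the sources used here do not say whether reads were counted by strand. Transcripts of 13 members overlap a gene of the table on the opposite strand: Orc1, Orc6, Mcm7, Cdc45, Gins2, Rfc2, Rfc4, Rfc5, Fen1, Lig1, Tk1, Chaf1a and Ccne2. Gins2, for example, shares 2758 bases with Gse1. Processed pseudogenes with at least 95% identity over at least 200 bases exist for Cdc6, Mcm7, Pcna, Rfc5, Rrm2, Slbp and Uhrf1, and Tyms shares such a stretch with transcripts of many other genes. The values of these members are uncertain to that extent, and Rrm1, Mcm10 and Clspn are outside both groups.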

How the data were processed

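Alveolar macrophage RNA from 20 mice was profiled by poly-A selected TruSeq mRNA libraries made from 25 ng of RNA, per the labels' protocols. The submitters' processing notes name STAR 2.6.0c, limma and the build GRCm38.p6, and for the counter, the annotation, the strand setting and the low-count filter no name is given in the sources used here. The authors deposited log2 CPM, in the form log2 of reads plus 0.5 over the library total plus 1, and each value turned back into reads came out whole within 0.001. Counting error and 5 mice per group limit the precision, and each library is taken as a separate mouse from its code.

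A model with a mean per group was fitted with limma 3.58.1 to the log2 CPM values, as deposited, of the 13225 genes (R 4.3.3), with an empirical Bayes variance that followed the mean level. For each contrast, 2-sided p values were adjusted over all genes (Benjamini-Hochberg), with the threshold for a call at 0.05. Errors after ± are limma standard errors for log2 changes and SDs over 5 mice for CPM. The fit was tested on simulated data. The members, gene lists and tests were chosen with earlier results of these data known, and the contrast averaged over genotypes was added after values were seen. Values in all mice are given for the 2 members of each role class with the smallest p of that average, and other lists name up to 4 called genes by the same p. Mouse codes occur once, so nothing was paired.

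Alternatives were other variance priors, minimum mean levels, log2 of CPM plus 1, quantile normalization, median centring, a covariate for the letter of the mouse code, fits without the groups not compared, array and voom weights, removal of the trend on transcript length and leaving out libraries. Promoter windows and the mature microRNA are from RefSeq (GRCm38.p6), 3′ UTRs and lengths from GENCODE, and similar transcripts were found with blastn 2.17.0. Python 3.11.15, pandas 2.3.3, numpy 2.4.6 and matplotlib 3.10.9 did the rest.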

Additional observations from a re-analysis of the deposited data

Results flagged for a closer look

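In 11 of 188 sets of 5 mice (47 members in 4 groups) a mouse stood far from the other 4 on Dixon's test, where chance gives 9.4 at 1 in 20. In miR-155 KO smoke, Mcm3 was at a log2 CPM of 6.39 in IVa4, and IVb2 was at 5.91 for Tk1, its highest, and at 3.42 for Dut, its lowest. In miR-155 KO air, IIIb3 was lowest for Orc1, at -0.98 with the nearest mouse at 1.25, and for Pola1, at 3.68. In the same group Rfc4 was at 1.47 in IIIb2 and Lig1 at 5.75 in IIIb4. In WT smoke, Rfc2 was at 5.85 in IIb2 and Fen1 at 5.45 in IIa5. In WT air, Mcm2 was at 5.47 in Ia3 and Atad2 at 5.60 in Ib1. Of these 11 values, 4 came from the 3 miR-155 KO air libraries with the most genes at 0 reads.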

How the results depend on the processing

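Across all alternatives, 5 to 16 members were called with smoke in miR-155 KO (14 as reported), 15 to 27 in WT (18 as reported) and 21 to 29 averaged over genotypes (27 as reported). In miR-155 KO the count was 5 when the fit held the compared groups only, and with a library left out it ran from 8 (without the air mouse IIIb3) to 15, with 9 without the smoke mouse IVa2. Between genotypes in smoke it was 9 with array weights, where 3.39% of all genes were called higher and 3.83% lower. Without IIIb2, IIIb3 and IIIb4 together, 11 members were called in miR-155 KO and 25 in WT. That fit called 4.63% of all genes higher and 4.6% lower in miR-155 KO, and 11.9% higher and 14.9% lower in WT. The fit as reported called 7.05% higher and 8.45% lower in miR-155 KO, and 9.66% and 12.8% in WT. With array weights these shares were 6.37% and 7.6% in miR-155 KO, and 13.8% and 17.7% in WT. With the compared groups only they were 5.1% and 6.3% in miR-155 KO, and 11.8% and 14.8% in WT. Whether the members moved apart from all genes was not tested. Single members were scored only in contrasts where the main fit or an alternative called them, and within that set no direction reversed. Members and contrasts called in no setting were not scored. For single members, 1039 of the recomputed values other than those with a library left out kept their side of the threshold, 49 lost it and 74 passed it, and with a library left out 1691 kept it, 120 lost it and 29 passed it. The median change of all genes moved by under 0.1 log2 with quantile normalization or median centring. The cause of these shifts was not tested. No paired analysis was possible because each mouse code occurs once.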
